A study of Sus scrofa with 6 samples.

Results

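The SLC25 family of mitochondrial carriers was followed in 6 single pig oocytes of the germinal vesicle stage, of which 3 were BCB-negative and 3 BCB-positive. Its members were taken as the genes of the deposited gene files whose pig symbol begins with SLC25A. The 37 described here came from 19300 genes in all. The dye is brilliant cresyl blue (BCB), which growing oocytes tend to decolourise and fully grown oocytes tend to keep. The BCB-positive oocytes are the blue ones. Pig ovaries supplied the oocytes, which were freed of cumulus cells and zona pellucida and lysed one by one, without maturation culture. The labels name no strain, age, genotype or animal for any oocyte. As far as they say, both classes were handled alike and differ in dye status alone.

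SLC25 proteins sit in the inner mitochondrial membrane and exchange small molecules between the cytosol and the mitochondrial matrix. They move ADP and ATP, phosphate, the acids of the citrate cycle, amino acids, coenzymes and metals, and a few members work in peroxisomes or the outer mitochondrial membrane. Oocytes rely on mitochondria to oxidise pyruvate, and their ATP reaches the cytosol through the ADP/ATP carriers of this family. Messenger RNA was measured here. Transport and protein were not.

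Levels are FPKM, fragments scaled by transcript length and by the mapped fragments of the library, as the authors deposited them. They are shares of a library and not amounts per oocyte. Total expected counts ran from 7122749 to 9238987 per oocyte. BCB-positive oocyte 3 had the deepest library, the lowest sum of FPKM (668430, against 784781 to 811744) and the most genes listed (16141, against 14071 to 15297). Oocyte markers were abundant, with 12 of 13 at a mean of at least 1 FPKM and ZP3 at 11426 FPKM on average. Of 12 markers of cumulus and granulosa cells, 10 had a mean under 1 FPKM or no row in the files used here, with FSHR, FOXL2, HAS2, GJA1 and KRT18 among those without a row. The other two were GATA4 and INHBA, at 93.1 and 25.9 FPKM. The marker sum was 116 to 143 FPKM in BCB-negative and 79.1 to 146 FPKM in BCB-positive oocytes. STAR, a low one, was at 0.05 to 0.37 FPKM in BCB-negative and 0.40 to 1.79 FPKM in BCB-positive oocytes. The part of such cells in the results was not tested.

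Most SLC25A genes overlapped between the classes, as did most of all genes compared, and overlap does not by itself mean like levels. Of the 30 members with a mean of at least 1 FPKM, 26 overlapped between the classes. For SLC25A27 and SLC25A44 the lowest BCB-positive value exceeded the highest BCB-negative value. For SLC25A1 and SLC25A48 the order of the classes was the reverse. These are carriers of branched-chain amino acids (SLC25A44) and citrate (SLC25A1), an uncoupling-protein relative (SLC25A27) and a member of less settled role (SLC25A48). Among all 11493 genes compared, 7.44% lay above in this way and 4.03% below. The 2 members above and the 2 below each make up 6.67% of 30, counts too small to set apart from those shares. The counts per role and per related list below are smaller still. With at least 1.5-fold between the class means of log2(FPKM + 1) required as well, 2 members were higher and 0 lower, against a background of 5.75% and 2.66%. Because the labels tie no oocyte to an animal, each class is 1 sample made of 3 cells, and no test between classes was made.

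The split of calls depended on the scaling of the libraries. With median-of-ratios size factors, 2 members were higher and 2 lower, against 522 and 425 of all genes. As deposited the counts over all genes were 661 and 306. After each library was set to one total of FPKM, 2 members were higher and 0 lower, against 818 and 225 of all genes. The median difference over the 30 members, BCB-positive minus BCB-negative, was 0.12 on the log2 scale as deposited, 0.02 with size factors and 0.22 with a common sum. The median over all genes was 0.11, 0.02 and 0.19 under the same scalings. Each scaling multiplies all genes of a library by the same factor, so the 2 medians were bound to move nearly together. As deposited, 19 members (63.3%) and 58.0% of all genes had a difference above 0.

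The members spanned a wide range of levels, from 355 FPKM for SLC25A5 to 0.045 FPKM for SLC25A25. A group of 7 members had a mean above 100 FPKM. They were SLC25A5, SLC25A6, SLC25A13, SLC25A17, SLC25A26, SLC25A33 and SLC25A51, and together they cover ATP export, the malate-aspartate shuttle and coenzyme transport. The median level of the 30 members was 21.985 FPKM, against 8.98 FPKM for all genes compared, and 17 of the 30 lay above the latter. In the order of mean FPKM, only 3 of 29 gaps between neighbours, taken on the log2 scale, were larger than the SD between oocytes of both genes. They lay between SLC25A6 and SLC25A13, between SLC25A51 (111 FPKM) and SLC25A4 (49.3 FPKM), and between SLC25A35 (19.3 FPKM) and SLC25A22 (7.07 FPKM). The other 26 neighbour pairs did not differ beyond that spread.

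**Figure D1:**
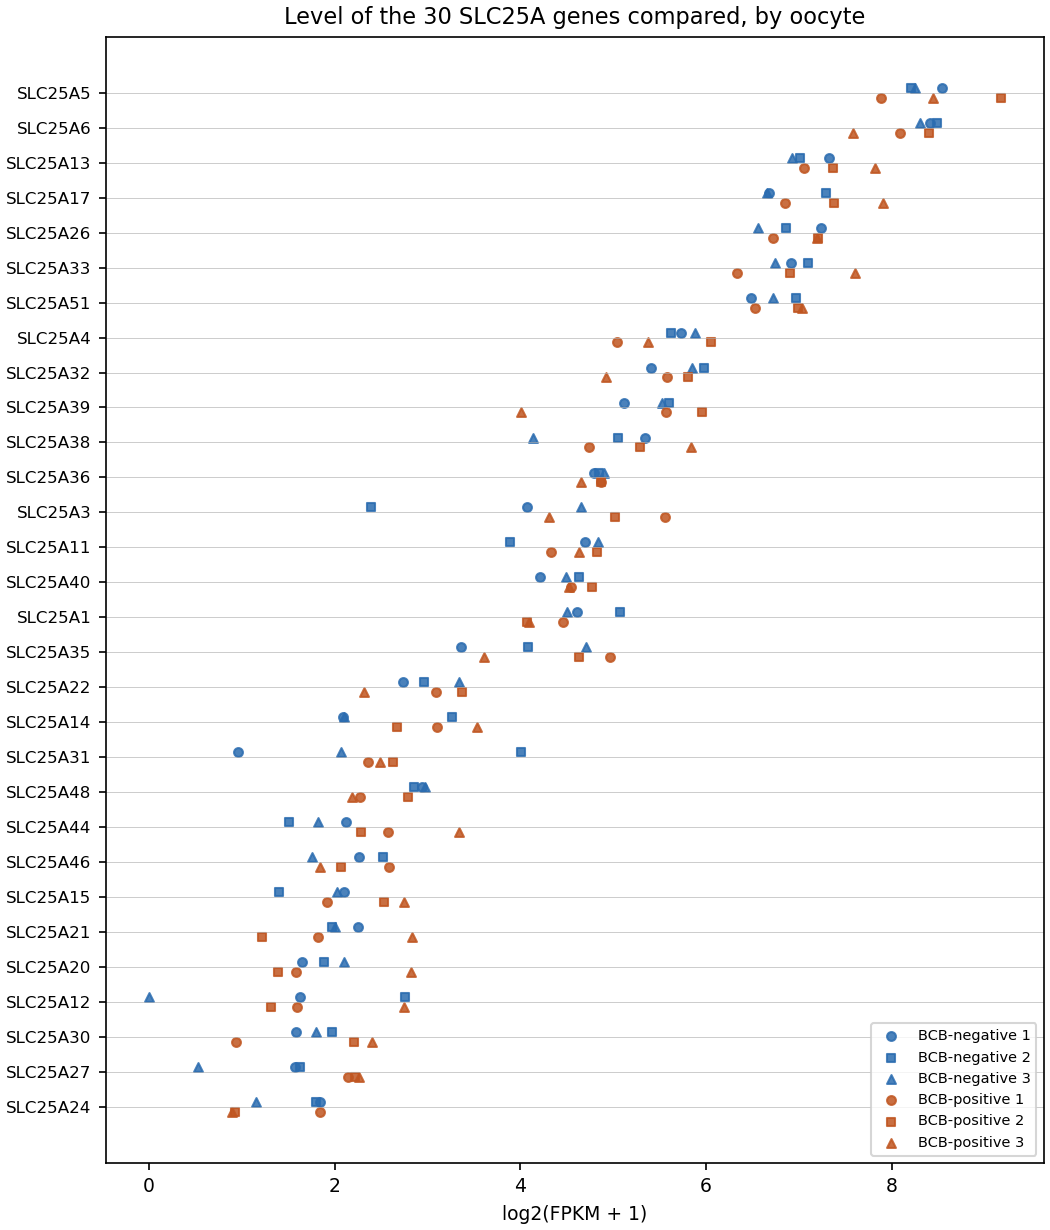
Level of each of the 30 members compared, as log2(FPKM + 1), with 1 point per oocyte; blue marks BCB-negative and orange BCB-positive oocytes, and genes run from the highest mean at the top. SLC25A5 and SLC25A6 lie highest, and the colours are mixed in most lines.

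The ADP/ATP carriers, which bring ATP out of the matrix in exchange for ADP, made up 32.4% to 47.8% of the summed FPKM of the family. All 4 were compared, 0 were without overlap, and the median difference was -0.05. Their coding sequences are alike, and how reads that match several of them were divided was not tested. SLC25A5, the form typical of dividing cells, stood at 370.0, 293 and 304 FPKM in the BCB-negative oocytes 1, 2 and 3, against 236, 577 and 347 FPKM in BCB-positive oocytes 1, 2 and 3, the order used for all values here. The classes overlapped, and BCB-positive oocytes 1 and 2 held the lowest and the highest values. The log2 difference was 0.17 (pooled SD between oocytes within a class 0.47), and -0.17 without BCB-positive oocyte 2. SLC25A6, the widely expressed form, stood at 338.5, 358 and 314 FPKM in the BCB-negative class, against 271, 337 and 189.9 FPKM in the BCB-positive class. Its difference was -0.38 (SD 0.30), with overlap through BCB-positive oocyte 2. Without BCB-positive oocyte 3, its lowest, the difference was -0.15.

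SLC25A5 and SLC25A6 were close to each other in 4 oocytes and unequal in 2. The ratio of SLC25A5 to SLC25A6 was 1.09, 0.82 and 0.97 in the BCB-negative class, against 0.87, 1.71 and 1.83 in the other. BCB-positive oocyte 1 thus lay within the BCB-negative range, and the other 2 of its class lay above it. As a share of the summed FPKM of all 4 ADP/ATP carriers, SLC25A5 averaged 44.8% ± 3.77 (SD over 3 oocytes) in the BCB-negative class, against 53.9% ± 9.10 in the other. Among counts rather than FPKM, the share in single oocytes ran from 37.96% (95% exact binomial interval 36.8% to 39.1%, BCB-negative oocyte 2) to 56.7% (55.5% to 57.9%, BCB-positive oocyte 3). Such intervals cover counting error only, since PCR copies were not marked.

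The remaining ADP/ATP carriers were lower. SLC25A4, the form of heart and muscle, stood at 51.95, 48.1 and 57.8 FPKM in the BCB-negative class, against 31.95, 65.4 and 40.3 FPKM in the BCB-positive class. SLC25A5 exceeded it by 5.26-fold to 8.83-fold within an oocyte. SLC25A31, known for its role in male germ cells, stood at 0.95, 15.1 and 3.20 FPKM (BCB-negative) and 4.12, 5.20 and 4.62 FPKM (BCB-positive). Its spread lay in the BCB-negative class, with the lowest and the highest value there. Of the 30 members it had the second largest SD between oocytes, 1.09. Its difference of 0.15 became 0.98 if BCB-negative oocyte 2 was left out, and -0.55 if BCB-negative oocyte 1 was.

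**Figure D2:**
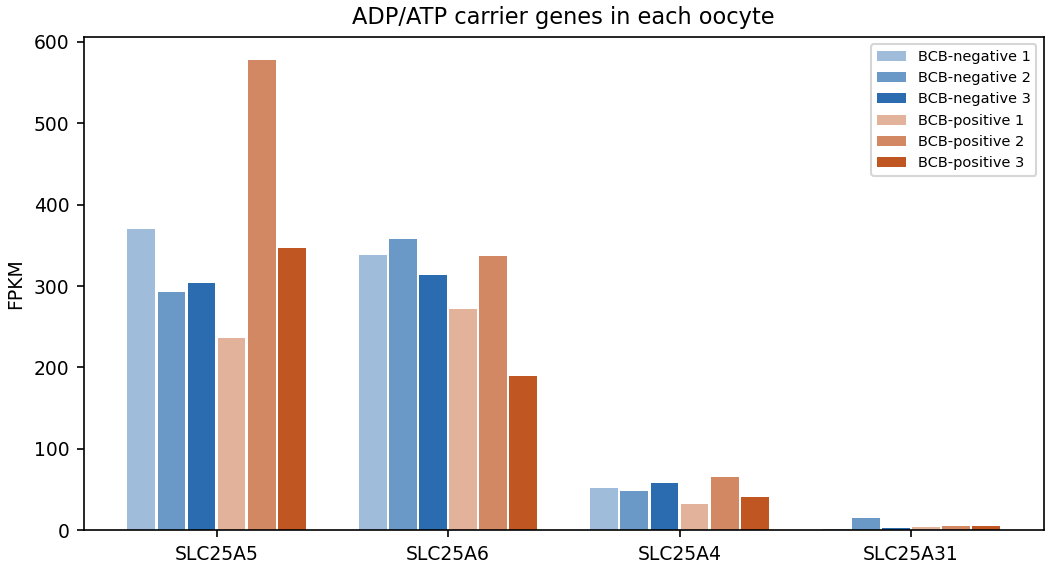
FPKM of the ADP/ATP carrier genes, 1 bar per oocyte, blue for BCB-negative and orange for BCB-positive oocytes 1 to 3 from pale to dark. SLC25A5 is tallest in BCB-positive oocyte 2, at 577 FPKM, and SLC25A6 is lowest in BCB-positive oocyte 3, at 189.9 FPKM.

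SLC25A3 brings phosphate into the matrix for ATP synthesis and also carries copper. It stood at 15.8, 4.23 and 24.1 FPKM in the BCB-negative class, against 46.0, 31.45 and 18.8 FPKM in the BCB-positive class. BCB-negative oocyte 2 was lowest and BCB-positive oocyte 1 highest, and the classes overlapped only between BCB-positive oocyte 3 and BCB-negative oocyte 3. The difference of 1.26 (SD 0.94) was the largest of the members described here, in either direction. It fell to 0.60 if BCB-negative oocyte 2 was left out. If BCB-positive oocyte 3 was left out it was 1.59, and the classes no longer overlapped. SLC25A3 was 5.12-fold to 69.3-fold below SLC25A5 within an oocyte. Its listed length, 1086 bases, was the shortest of the 37 members, and whether the model's extent affects its level was not tested.

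The calcium-dependent ATP-Mg/phosphate carriers, which adjust the nucleotide pool of the matrix, were low. SLC25A24 stood at 2.60, 2.48 and 1.23 FPKM in the BCB-negative class, against 2.60, 0.90 and 0.86 FPKM in the BCB-positive class, the lowest mean that passed the 1 FPKM limit (1.78). SLC25A23 and SLC25A25 had means of 0.65 and 0.045 FPKM and were not compared. SLC25A23 rested on 32.4 counts over the BCB-negative and 6 over the BCB-positive oocytes.

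Carriers of nucleotides, coenzymes and vitamins held 31.1% to 42.5% of the family's summed FPKM, less than the ADP/ATP carriers in 5 oocytes and more in BCB-positive oocyte 3. Of 8 with a row, 6 were compared, 0 were without overlap, and their median difference was 0.08. SLC25A17, a peroxisomal carrier of coenzymes and nucleotides, stood at 101, 155 and 99.5 FPKM (BCB-negative) and 114, 165 and 238 FPKM (BCB-positive). BCB-negative oocyte 2 lay above BCB-positive oocyte 1, so the classes overlapped. The difference was 0.50 (SD 0.45), and 0.24 without BCB-positive oocyte 3. SLC25A26, which imports S-adenosylmethionine for methylation inside mitochondria, stood at 149.6, 115 and 93.5 FPKM in the BCB-negative class, against 105, 146 and 146 FPKM in the BCB-positive class. The classes covered nearly the same range, and the difference of 0.15 (SD 0.31) was -0.0082 without BCB-negative oocyte 3. The gene overlaps LRIG1 in the reference annotation, at 4.52 to 9.44 FPKM, and the counting is not stated to use strand.

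SLC25A33, a carrier of pyrimidine nucleotides, stood at 119, 136 and 106 FPKM in the BCB-negative class, against 79.55, 119 and 194 FPKM in the BCB-positive class. The BCB-positive oocytes held both extremes, and the difference of 0.03 (SD 0.47) was -0.07 with size factors and -0.30 without BCB-positive oocyte 3. SLC25A36, a close relative that also carries pyrimidine nucleotides, was the steadiest member, between 24.1 and 28.95 FPKM in all oocytes (SD 0.10). SLC25A51, which imports NAD into mitochondria, stood at 88.5, 124 and 105 FPKM (BCB-negative) and 91.2, 126 and 129.7 FPKM (BCB-positive). Its classes overlapped almost fully, and the difference was 0.13 (SD 0.26). SLC25A32, which carries folate or FAD, stood at 41.4, 61.85 and 56.6 FPKM in the BCB-negative class, against 47.0, 55.1 and 29.4 FPKM in the BCB-positive class. BCB-positive oocyte 3 was lowest, and the difference of -0.30 (SD 0.39) was -0.05 without it. DCAF13, which overlaps SLC25A32 in the reference annotation, stood at 14.2 to 48.9 FPKM, so the value of SLC25A32 is uncertain.

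The carriers of carboxylates and of the malate-aspartate shuttle were led by SLC25A13. Of 6 compared, 0 lay above and 1 below without overlap, with a median difference of 0.02. SLC25A13 exchanges aspartate for glutamate, the step that drives the shuttle of reducing power into mitochondria. It stood at 159, 127.5 and 121 FPKM in the BCB-negative class, against 132, 164 and 225 FPKM in the BCB-positive class. Overlap came from BCB-positive oocyte 1, and the difference was 0.33 (SD 0.31), and 0.13 without BCB-positive oocyte 3. SLC25A12, the other aspartate/glutamate carrier, stood at 2.10, 5.76 and 0 FPKM in the BCB-negative class, against 2.03, 1.49 and 5.70 FPKM in the BCB-positive class. The 0 in BCB-negative oocyte 3 allows up to 0.32 FPKM, the level of 3 counts. SLC25A12 had the largest SD of the family, 1.12, and its difference of 0.42 was -0.31 without BCB-negative oocyte 3. In the 5 oocytes where both were listed, SLC25A13 exceeded SLC25A12 by 22.1-fold to 110-fold.

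SLC25A1 (gene 100154310) exports citrate, the source of cytosolic acetyl groups for lipid synthesis. It stood at 23.4, 32.7 and 21.7 FPKM (BCB-negative) and 21.0, 15.8 and 16.1 FPKM (BCB-positive). The classes did not overlap but nearly touched, 0.65 FPKM apart between BCB-negative oocyte 3 and BCB-positive oocyte 1. The difference was -0.52 (SD 0.26), short of 1.5-fold, and leaving out single oocytes gave -0.35 (BCB-negative oocyte 2) to -0.65 (BCB-positive oocyte 1). It was -0.62 with size factors, past 1.5-fold. Counts summed to 892 (95% exact Poisson interval 834 to 953) over the BCB-negative and 680.0 (629.8 to 733) over the BCB-positive oocytes. Count sums here and below are not corrected for the unequal depth of the libraries, so they show the reads behind a value and not its difference. SLC25A11, which exchanges oxoglutarate for malate in the same shuttle as SLC25A13, stood at 24.9, 13.8 and 27.6 FPKM in the BCB-negative class, against 19.1, 27.3 and 23.8 FPKM in the BCB-positive class, with wide overlap. Its difference of 0.12 (SD 0.40) was -0.17 without BCB-negative oocyte 2. SLC25A22 and SLC25A21, carriers of glutamate and of oxoadipate, averaged 7.07 and 3.28 FPKM and differed by -0.08 and -0.12. Neither sign was stable, since SLC25A22 differed by 0.22 without BCB-positive oocyte 3. SLC25A21 differed by 0.25 without BCB-positive oocyte 2 and by -0.56 without BCB-positive oocyte 3.

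Carriers of amino acids, carnitine and glutathione were of middle level. Of 6 compared, 1 lay above without overlap and 0 below, and the median difference was 0.31. SLC25A39, needed for glutathione import, stood at 33.7, 47.5 and 44.9 FPKM in the BCB-negative class, against 46.4, 61.0 and 15.05 FPKM in the BCB-positive class. BCB-positive oocytes 2 and 3 were the highest and the lowest, and the difference of -0.24 (SD 0.75) turned to 0.35 without BCB-positive oocyte 3. SLC25A40, its nearest relative, was steadier, between 17.5 and 26.2 FPKM (SD 0.18). SLC25A39 was 1.93-fold to 2.33-fold above SLC25A40 in 5 oocytes and at 0.68 of it in BCB-positive oocyte 3. SLC25A38, a glycine carrier of haem synthesis, stood at 39.5, 32.1 and 16.6 FPKM (BCB-negative) and 25.8, 38.1 and 56.05 FPKM (BCB-positive). Its classes overlapped, and its difference of 0.45 (SD 0.59) was 0.09 without BCB-negative oocyte 3.

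SLC25A44 (gene 100155112) carries branched-chain amino acids into mitochondria. It stood at 3.35, 1.85 and 2.54 FPKM in the BCB-negative class, against 4.98, 3.88 and 9.12 FPKM in the BCB-positive class. The classes were 0.53 FPKM apart at their nearest, and BCB-positive oocyte 3 was highest. The difference was 0.92 (SD 0.44), and leaving out single oocytes gave 0.61 (BCB-positive oocyte 3) to 1.14 (BCB-positive oocyte 2). Counts summed to 204 (177 to 234) over the BCB-negative and 549 (504 to 597) over the BCB-positive oocytes, from 1 listed transcript. SLC25A15 and SLC25A20, carriers of ornithine and of acylcarnitines, averaged 3.55 and 2.97 FPKM and differed by 0.56 and 0.05, with overlap. The difference of SLC25A20 was -0.39 without BCB-positive oocyte 3.

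The relatives of uncoupling proteins were low. All 3 were compared, and 1 lay above without overlap and 0 below. SLC25A27 (gene 100157774), also called UCP4 and known from brain, stood at 1.98, 2.08 and 0.44 FPKM in the BCB-negative class, against 3.43, 3.67 and 3.79 FPKM in the BCB-positive class. The BCB-positive oocytes lay close together, 1.35 FPKM above the highest BCB-negative oocyte, and BCB-negative oocyte 3 lay apart below. The difference was 0.97 (SD 0.44), and leaving out single oocytes gave 0.61 (BCB-negative oocyte 3) to 1.16 (BCB-negative oocyte 2). Counts summed to 109 (89.5 to 131) over the BCB-negative and 279 (247 to 314) over the BCB-positive oocytes. Its 3265-base transcript alone stood at 1.94, 2.08 and 0.44 FPKM (BCB-negative) and 3.06, 3.67 and 2.94 FPKM (BCB-positive), also without overlap. This transcript held 77.4% to 100% of the gene's FPKM, so its values largely restate those of the gene.

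SLC25A14, or UCP5, stood at 3.27, 8.63 and 3.28 FPKM in the BCB-negative class, against 7.58, 5.37 and 10.6 FPKM in the BCB-positive class. BCB-negative oocyte 2 lay above 2 of the BCB-positive oocytes, and the difference was 0.62 (SD 0.57). It was 1.01 without BCB-negative oocyte 2, where the classes no longer overlapped, and 0.40 without BCB-positive oocyte 3. SLC25A30 stood at 2.00, 2.91 and 2.49 FPKM in the BCB-negative class, against 0.91, 3.61 and 4.29 FPKM in the BCB-positive class. Its difference was 0.06 as deposited and -0.02 with size factors, so it has no settled sign.

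Among members of less settled role, SLC25A35 stood at 9.26, 15.96 and 25.2 FPKM (BCB-negative) and 30.35, 23.9 and 11.2 FPKM (BCB-positive), with wide overlap. RANGRF overlaps it in the reference annotation and stood at 18.6 to 51.3 FPKM, so SLC25A35 is uncertain. Its difference of 0.35 (SD 0.69) was 0.75 without BCB-positive oocyte 3. SLC25A48 (gene 100518721) stood at 6.67, 6.22 and 6.84 FPKM in the BCB-negative class, against 3.82, 5.91 and 3.54 FPKM in the BCB-positive class. The BCB-negative oocytes were nearly equal, and the nearest BCB-positive oocyte lay 0.31 FPKM below them. The difference was -0.51 (SD 0.24), short of 1.5-fold, and -0.59 with size factors, past it. Leaving out single oocytes gave -0.39 (BCB-positive oocyte 3) to -0.69 (BCB-positive oocyte 2). Counts summed to 198 (171 to 228) over the BCB-negative and 152 (129 to 178) over the BCB-positive oocytes. SLC25A46, an outer membrane protein of mitochondrial dynamics, averaged 3.62 FPKM and differed by -0.02 (SD 0.39). SLC25A11, SLC25A40, SLC25A15 and SLC25A21 also overlap other listed genes, so their values are uncertain too. The 4 members whose classes did not overlap share no stretch with a listed gene in that annotation.

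**Figure D3:**
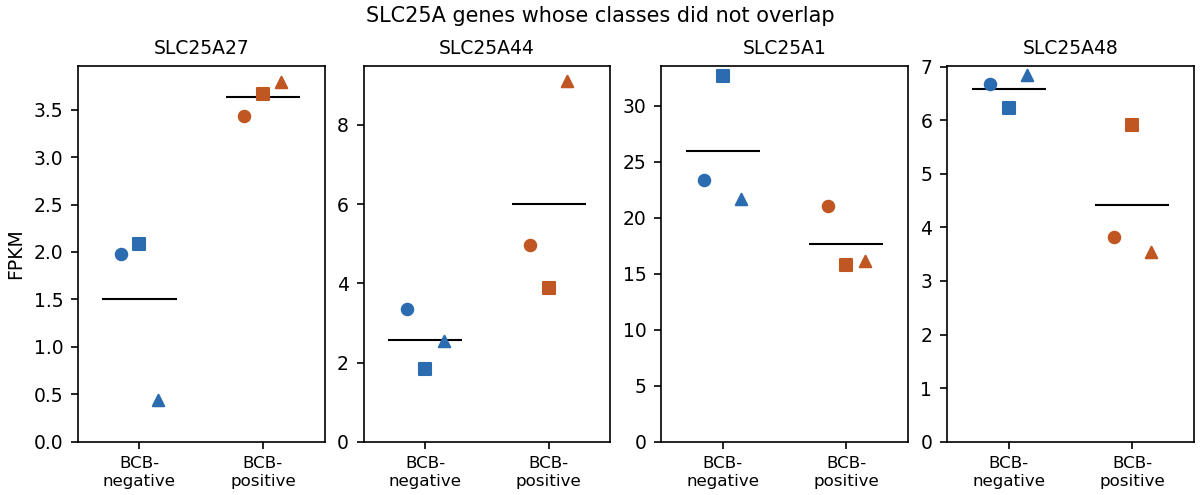
FPKM in each oocyte of the 4 members whose classes did not overlap, with a horizontal line at the class mean; blue marks BCB-negative and orange BCB-positive oocytes, and circles, squares and triangles are oocytes 1, 2 and 3. The gap between classes is widest for SLC25A27, at 1.35 FPKM, and narrowest for SLC25A48, at 0.31 FPKM.

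**Figure D4:**
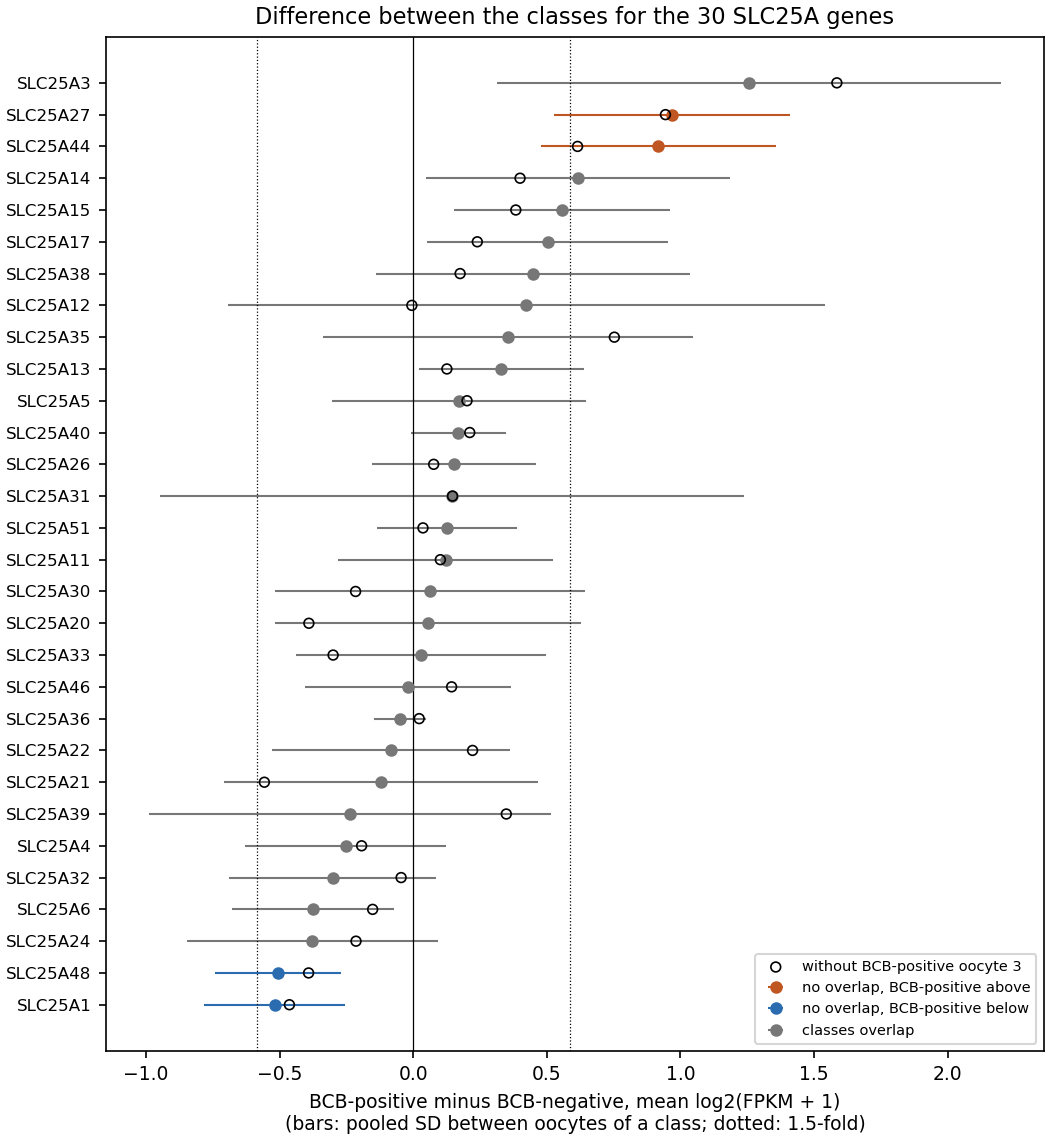
BCB-positive minus BCB-negative difference of mean log2(FPKM + 1) for the 30 members, with bars that span the pooled within-class SD on either side and open circles for the value without BCB-positive oocyte 3. Filled orange and blue points are the 4 members whose classes did not overlap; SLC25A27 is at 0.97 and SLC25A1 at -0.52.

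A group of 7 members had a mean under 1 FPKM and were not compared. They were SLC25A16, SLC25A23, SLC25A53, SLC25A28, SLC25A29, SLC25A47 and SLC25A25. SLC25A16 was just under the limit, at 0.25, 1.97 and 0.99 FPKM in the BCB-negative class, against 0.45, 1.57 and 0.55 FPKM in the BCB-positive class. The iron carrier SLC25A28, or mitoferrin 2, was at 0.52, 0 and 0.83 FPKM (BCB-negative) and 0, 0 and 0.50 FPKM (BCB-positive). The level of 3 counts for SLC25A28 is 0.24 to 0.26 FPKM in the oocytes at 0. SLC25A25 had 3 counts in all and values identical to those of other genes, so it is uncertain. The reference table names 7 more SLC25A genes, which were not analysed here. They are SLC25A10, SLC25A34, SLC25A37, SLC25A41, SLC25A42, SLC25A43 and SLC25A45, of which SLC25A37 is mitoferrin 1, the other iron carrier.

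As a whole, the family held 0.178% to 0.269% of all FPKM in an oocyte. Its summed FPKM was 1654, 1683 and 1515 in the BCB-negative (mean 1617, SD 89.6) and 1397, 2061 and 1795 in the BCB-positive class (mean 1751, SD 334). BCB-positive oocytes 1 and 2 were the lowest and the highest of all 6, so the classes overlapped. The log2 ratio of class means, 0.11, was smaller than the SD of 0.21 between oocytes of a class, and it was 0.01 with size factors and -0.02 without BCB-positive oocyte 2. The 5 most abundant members held 61.4% to 67.6% of the sum, with means of 63.8% and 64.2% in the BCB-negative and BCB-positive classes.

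**Figure D5:**
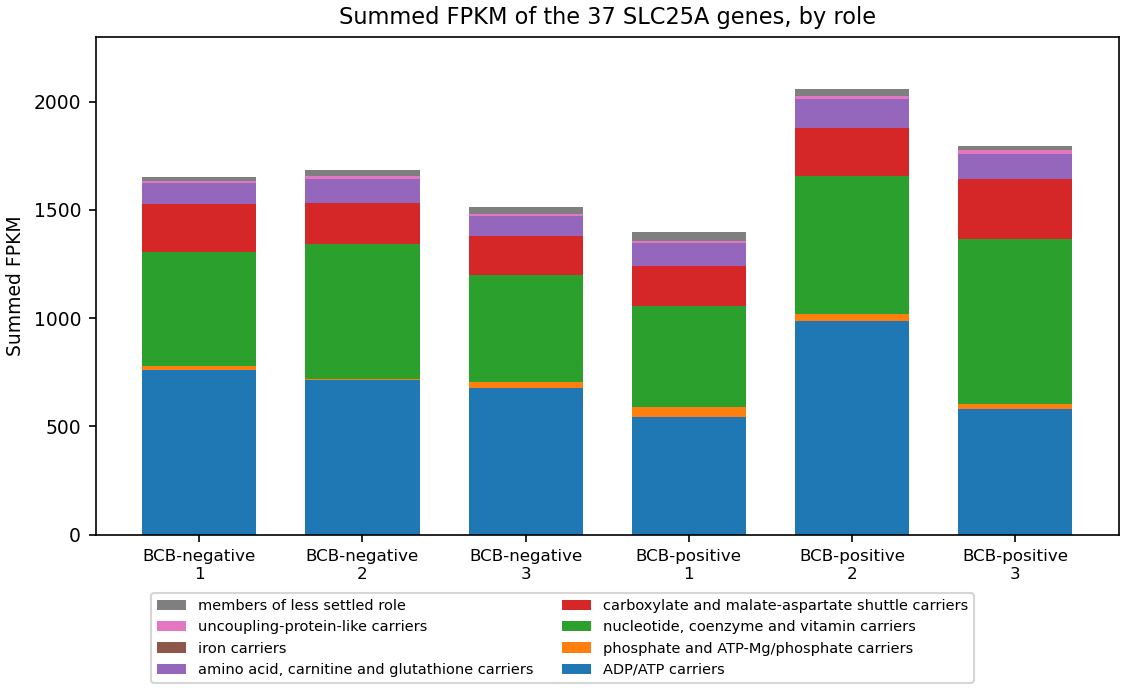
Summed FPKM of the 37 members in each oocyte, stacked by role. ADP/ATP carriers and carriers of nucleotides, coenzymes and vitamins fill most of each bar; the bar of BCB-positive oocyte 2 is tallest at 2061 FPKM, and the iron carriers, at most 0.83 FPKM, are too small to see.

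For most members the classes differed by less than oocytes of a class did. The median SD between oocytes of a class was 0.44 for the 30 members, and 26 of them, or 86.7%, differed between classes by less than 1.5-fold, against 71.7% of all genes. These shares are not matched for level, since the median level was 21.985 FPKM for the members and 8.98 FPKM for all genes. The difference was larger than the member's own SD for 10 members, or 33.3%, against 32.5% of all genes. For 13 of the 30 the sign of the difference changed when some single oocyte was left out, and for 8 of them BCB-positive oocyte 3 was such an oocyte. None of the 13 was a member without overlap, but full separation of the classes fixes the sign, so this was bound to be so. BCB-positive oocyte 3 was the highest oocyte for 12 of the 30 members (40.0%, against 32.6% of all genes). It was the lowest for 7 (23.3%, against 18.4% of all genes), as was BCB-negative oocyte 3 (23.3%, against 19.9%). BCB-negative oocyte 1 was the highest for 2 (6.67%, against 11.6% of all genes). For the 16 members at 20 FPKM or more the median SD was 0.38, against 0.42 for the 3815 genes at such levels.

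Transcript shares could be described for the 7 members with more than 1 listed transcript. SLC25A13 kept its proportions, with 83.1% to 88.7% of its FPKM on the 3006-base transcript. In SLC25A40 the short transcript of 1143 bases held 7.42%, 49.4% and 35.9% in the BCB-negative class, against 28.6%, 31.1% and 27.9% in the other. Here the BCB-negative oocytes spread widely and the BCB-positive oocytes lay close together inside that range. In SLC25A48 the 1456-base transcript held 97.7%, 97.6% and 8.92% in the BCB-negative class, against 81.6%, 100% and 55.9% in the other, so the transcript in use differed between oocytes of the same class. At the depth of SLC25A48 the split between transcripts rests on few reads.

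Genes that work beside the family mostly overlapped between the classes too. So did most of all genes compared, of which 7.44% lay above and 4.03% below without overlap. The family members under other symbols include MTCH1 and MTCH2, outer membrane proteins, of which MTCH2 inserts other proteins there. They averaged 87.2 and 84.2 FPKM and differed by -0.31 (SD 0.48) and 0.01 (SD 0.32). Without BCB-positive oocyte 3 both signs turned, to 0.07 and -0.06. UCP2 and UCP3 had means under 1 FPKM, and UCP1 was not analysed here. Of these 5 genes 2 were compared, and 0 were without overlap. Among 8 other inner membrane carriers and channels, 4 were compared, 0 were without overlap, and the median difference was -0.38. MPC1 and MPC2, the subunits of the pyruvate carrier, averaged 229 and 297 FPKM, close to SLC25A5 and SLC25A6, and differed by -0.62 (SD 0.64) and -0.13 (SD 0.41). Without BCB-positive oocyte 3 the differences were -0.26 and 0.19.

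Carrier proteins reach the inner membrane through receptors and pores of the outer membrane, small chaperones between the membranes and the TIM22 complex. Of 10 genes of this route, 8 were compared, 0 lay above and 1 below without overlap, and the median difference was 0.10. Over all genes compared 4.03% lay below without overlap, and 1 of 8 is too few to set apart from that share. The lower gene was TIMM29, a subunit of the TIM22 complex, at 32.8, 32.9 and 37.1 FPKM in the BCB-negative class, against 25.3, 15.3 and 23.3 FPKM in the BCB-positive class. Its difference was -0.69 (SD 0.27), and -0.77 without BCB-positive oocyte 3. TIMM22, the pore of that complex, differed by 0.40 (SD 0.46) in the other direction, with overlap. TIMM9 and TIMM10B, both small chaperones, averaged 425 and 172 FPKM and differed by -0.19 and 0.20, both with overlap. Without BCB-positive oocyte 3 TIMM9 differed by -0.06. TIMM10 and TOMM70, of the same route, had means of 0.71 and 0.19 FPKM and were not compared.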

How the data were processed

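Each library was 1 oocyte, reverse transcribed from poly(A), amplified by PCR and sequenced in a shared lane, per the labels' protocols. Per the submitters' processing notes, the build was Sscrofa10.2 and the tools included RSEM, Cufflinks and BWA; not given in the sources used here are their versions and what each did. The authors deposited, per gene and per transcript, an expected count (an estimate, not always whole) and an FPKM rounded to 2 decimals; a gene in no row of an oocyte's file was set to 0. Of 19300 genes, 13936 had their ID in a RefSeq table of Sscrofa11.1, which was used for names and overlapping genes only. A filter at 1 FPKM on the mean of all oocytes left 30 members and 11493 genes to compare.

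The measure was the difference of class means of log2(FPKM + 1), which understates changes of low genes. Classes were said not to overlap where every oocyte of one lay above every oocyte of the other. The labels name no animal, so a class is 1 sample of 3 cells and no p-value was computed. The values given in every oocyte are those of members without overlap, the 10 highest, the 2 highest of each role, the 3 with the largest SD and the members beside the 1 FPKM limit; genes of the related lists without overlap are added. SLC25A36, SLC25A40, SLC25A22, SLC25A21, SLC25A15, SLC25A20, SLC25A46, TIMM22, TIMM10, TOMM70 and the transcript shares were named after their values were seen. Of the genes under the symbol rule and of the related lists, 1 each is not reported here and is left out of the counts of members and list genes, though not of those over all genes. The members and lists were chosen with earlier results of these data known. The comparison was tested on simulated data, with an assumed spread between oocytes and changes well past 1.5-fold. Changes near 1.5-fold and genes of few counts were not simulated. Alternatives were other pseudocounts, scalings and filters, CPM from the expected counts, a ratio of class means and leaving out each oocyte. Python 3.11.15, pandas 2.3.3, numpy 2.4.6 and scipy 1.17.1 were used.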

Additional observations from a re-analysis of the deposited data

How the results depend on the processing

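Of 340 values recomputed under alternatives for the 23 compared members named by rule, 338 moved by less than 1 SD between oocytes of a class. The 340 include values under other filters, which do not alter a gene's own difference and so could not move. Values with 1 oocyte left out could not move either, since with 3 oocytes per class that shift stays under 1 pooled SD. The count of 338 is therefore in large part fixed by construction. The 2 values that moved by more were both of SLC25A27, with a pseudocount of 0.1 or 5 FPKM. No member past 1.5-fold without overlap changed sign, but full separation fixes the sign under other pseudocounts and with single oocytes left out. Overlapping members could change sign, and SLC25A31 differed by -0.39 with a ratio of class means, against 0.15 as deposited. The counts of members past 1.5-fold without overlap were less stable. With a pseudocount of 5 FPKM, 0 members were higher, against 396 and 178 of all genes higher and lower. With a mean of at least 5 FPKM required, 0 members were higher, against 411 and 192 of all genes; SLC25A27 and SLC25A44 are not among the genes then compared. Members lower numbered 1 (SLC25A48) with a pseudocount of 0.1 FPKM and 2 (SLC25A1 and SLC25A48) with size factors. Leaving out 1 oocyte gave 2 to 5 members higher, most without BCB-negative oocyte 2, and 0 to 2 lower, most without BCB-positive oocyte 1. Over all genes it gave 826 to 1574 higher and 506 to 795 lower, since 2 oocytes are more easily ordered than 3. The members' median difference was 0.015 (without BCB-negative oocyte 1) to 0.24 (without BCB-positive oocyte 1). The share of SLC25A5 among the ADP/ATP carriers differed by 6.18 to 14.3 percentage points, and that of the 5 most abundant members by -1.22 to 2.28. Beyond these constructions the cause of each change was not tested. Depth limits the compared members with a mean under 5 FPKM, which rest on 49 to 549 counts per class. Few reads also lie behind SLC25A48, SLC25A14 and SLC25A31, whose means are above that level. They rest on 198 and 152, 148 and 266, and 261 and 211 counts in the BCB-negative and BCB-positive classes. No paired analysis was possible because the numbers of the oocytes only name them and no test was made.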
